A study of Mus musculus with 656 samples.

Results

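The 32 genes described here encode proteins of mitosis, the stage of the cell cycle in which the duplicated chromosomes are separated. They were taken as a list of symbols, by a rule that uses no measured value, and matched to the Ensembl identifiers of the count table. All 32 were found among its 22070 genes, and all 32 passed the filter on low counts that left 10766 genes for testing. The measurements come from mouse 3T3 cells, an established fibroblast line grown in DMEM with 10% bovine calf serum, and were made by TagSeq, which sequences the 3′ ends of polyadenylated transcripts.

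Cells were kept for 1 h with 0, 25, 50 or 100 µM of SC-514, which inhibits IKKβ. The stimulus that followed was IL-1β (1 ng/ml) in one set of libraries and TNF-α (10 ng/ml) in the other. Cells were sampled 15, 30, 60, 120 or 360 min after stimulation, which gave 20 groups for each stimulus, and 1 further group received neither stimulus nor inhibitor and was sampled once. The series was designed to measure how selective inhibition of IKKβ, the kinase that releases NF-κB, affects NF-κB transcription under either cytokine. Each of the 41 groups holds 4 libraries, numbered 1 to 4. The labels give no group with SC-514 alone, name no vehicle for 0 µM, and do not tell whether the 4 libraries of a group are separate cultures. The p-values therefore reflect the variation among these libraries, which may be technical. The same column prefix stands for one stimulus in the sample titles and for the other in the sample descriptions. The description and the stimulus label were followed, and libraries are named by that label (labelled IL-1β, labelled TNF-α).

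Entry into mitosis is driven by CDK1, a kinase that is active only when bound to a cyclin A or B. Aurora and Polo-like kinases then help build the spindle, the spindle checkpoint holds the cell until every chromosome is attached, and the ubiquitin ligase APC/C ends the stage by marking cyclin B and securin for destruction. The transcripts of these genes accumulate together in G2 and mitosis in proliferating cells such as fibroblasts, largely through promoters bound by NF-Y, B-MYB and the MuvB complex. In libraries made from many cells, fewer cells in G2 and mitosis and less RNA of these genes in each cell cannot be told apart.

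The promoter elements known for this group of genes are the CCAAT box, the site of NF-Y, and the cell cycle genes homology region (CHR), the site of MuvB, with the letters TTTGAA. RefSeq windows on GRCm38.p6, from 250 bases before to 50 bases after each gene's start, were matched for 28 of the 32 genes by symbol. The unmatched genes were Ccna2, Aurkb, Tpx2 and Kif20a. On either strand, TTTGAA was found for 22 of the 28 genes (78.6%), against 17.9% of all 32851 windows. CCAAT was found for 24 (85.7%), against 37.4% of all windows, and both for 20 (71.4%), against 6.95%. The CHR variant TTCGAA was found for 3 (10.7%), against 1.56%. Each motif was counted on its own, so matches may share bases, and a match describes the sequence only. Below are the windows of 4 genes on which the results turn, each written 5′ to 3′ on the strand of its gene with every match of the 3 motifs, on either strand, in capitals. The first is the gene with the most changes under SC-514, and the others are a cyclin that was higher with SC-514 in libraries labelled TNF-α and 2 genes that were lower with SC-514 in libraries labelled IL-1β at 360 min.
Nusap1, chr2:119618048-119618347, plus strand: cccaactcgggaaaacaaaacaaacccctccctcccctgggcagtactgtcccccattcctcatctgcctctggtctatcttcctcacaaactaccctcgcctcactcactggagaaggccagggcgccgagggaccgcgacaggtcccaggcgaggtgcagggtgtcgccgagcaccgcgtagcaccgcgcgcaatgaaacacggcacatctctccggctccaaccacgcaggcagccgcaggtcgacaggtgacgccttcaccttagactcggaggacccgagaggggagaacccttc
Ccnb2, chr9:70421505-70421804, minus strand: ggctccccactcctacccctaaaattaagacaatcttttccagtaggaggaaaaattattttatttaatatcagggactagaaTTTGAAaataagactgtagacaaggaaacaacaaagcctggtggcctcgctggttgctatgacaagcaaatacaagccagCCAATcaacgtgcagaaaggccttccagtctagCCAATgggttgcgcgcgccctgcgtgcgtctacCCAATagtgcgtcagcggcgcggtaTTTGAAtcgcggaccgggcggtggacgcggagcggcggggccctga
Cdc20, chr4:118437294-118437593, minus strand: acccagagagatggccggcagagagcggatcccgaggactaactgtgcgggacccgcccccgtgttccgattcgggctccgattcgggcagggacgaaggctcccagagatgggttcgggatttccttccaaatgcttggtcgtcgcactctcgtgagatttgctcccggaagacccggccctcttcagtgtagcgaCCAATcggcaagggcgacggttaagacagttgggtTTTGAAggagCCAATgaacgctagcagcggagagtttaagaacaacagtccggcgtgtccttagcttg
Top2a, chr11:99024140-99024439, minus strand: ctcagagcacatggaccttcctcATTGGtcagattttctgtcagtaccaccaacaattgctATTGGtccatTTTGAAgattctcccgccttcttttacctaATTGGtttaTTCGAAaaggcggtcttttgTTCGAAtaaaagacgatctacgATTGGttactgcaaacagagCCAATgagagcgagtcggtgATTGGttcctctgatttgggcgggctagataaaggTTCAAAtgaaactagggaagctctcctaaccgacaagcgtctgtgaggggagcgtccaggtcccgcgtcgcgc
Neither the Nusap1 window nor that of Birc5 held any of the 3 motifs, which says only that these letters are not in this stretch. Ccnb2 had 2 CHR and 3 CCAAT matches, Cdc20 had 1 and 2, and Top2a had 2 CHR, 2 variant and 6 CCAAT matches.

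Library totals were 928906 to 2469454 counts for 162 of the 164 libraries, so that 3 counts equalled 1.215 to 3.23 CPM, that is counts scaled to a common library size. Library 1 of the group labelled IL-1β at 50 µM and 30 min had 12191 counts, 44 of them from the 32 genes, and library 1 of the group labelled TNF-α at 50 µM and 120 min had 3839, with 15. Library 1 of the groups labelled IL-1β at 100 µM had more detected genes than any other library of its group at 120 min (14634) and at 360 min (15303). Of 12 fibroblast markers, 11 averaged between 76.25 and 2194 CPM, while Lum had 4 counts over all libraries. Of 19 markers of other cell types in the table, 13 averaged under 1 CPM, and Des was highest at 9.23 CPM.

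Every member was expressed. Values are CPM after scaling of the libraries, and since one 3′ tag stands for one transcript, the levels need no correction for length, although tags are not captured equally from every gene. Top2a, the topoisomerase that untangles sister chromatids, was the most abundant at 643 CPM on average over the deep libraries, and Kif20a, a kinesin of cytokinesis, was the least abundant at 6.25 CPM. Without stated strand use, reads of Kif20a and Cdc23, which overlap on opposite strands, may not be separable (1328 counts over all libraries for Kif20a and 1741 for Cdc23), and the same holds for Kif4 with Pdzd11 and Ccna2 with Exosc9. Tpx2, Birc5, Mki67, which encodes the proliferation marker Ki-67, and Cdk1 followed Top2a, at 207.5, 194, 181 and 167 CPM. The other 26 averaged between 27.3 CPM, for Kif2c, and 157 CPM, for Ube2c.

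A wide spread in these genes ran with the library number. In libraries labelled IL-1β, the summed level of the 32 genes had a median of 3573 CPM over the libraries numbered 1, 3629 over those numbered 2, 3196 over those numbered 3 and 2969 over those numbered 4. In libraries labelled TNF-α the medians were 3091, 2690, 4010 and 4332 CPM in the same order, and the 4 unstimulated libraries had a median of 2662 CPM. The numbers that were high under one label were thus low under the other. Under the IL-1β label the means over numbers 1 and 2 lay above those over numbers 3 and 4 for 30 of the 32 genes, against 18.04% of all genes tested. With the TNF-α label, numbers 3 and 4 lay above 1 and 2 for 31 of the 32, against 25.56% of all genes.

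**Figure D1:**
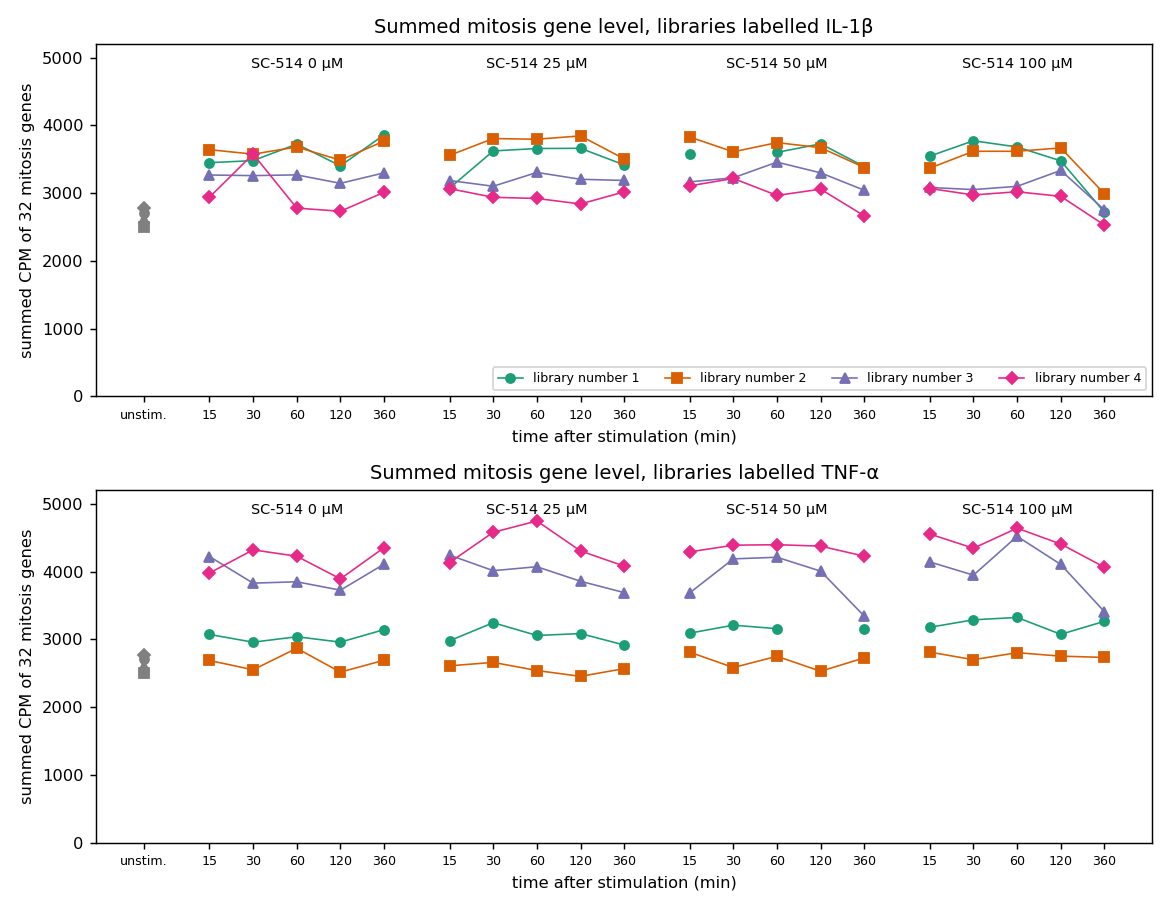
Summed CPM of the 32 mitosis genes (vertical axis) in every library with at least 100000 counts, by time after stimulation and SC-514 concentration (horizontal axis), coloured by library number, for libraries labelled IL-1β (top) and TNF-α (bottom). Numbers 1 and 2 of the IL-1β label have medians of 3573 and 3629 CPM, above 3196 and 2969 CPM for numbers 3 and 4, and numbers 3 and 4 of the TNF-α label have medians of 4010 and 4332 CPM, above 3091 and 2690 CPM for numbers 1 and 2.

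Between the highest and the lowest library number, the members differed by a median of 0.30 log2 units under the IL-1β label, with a range of 0.23 to 0.48, against a median of 0.15 for all genes. Under the TNF-α label their median was 0.72, with a range of 0.53 to 0.90, against 0.17 for all genes. Kif11, the kinesin that pushes the spindle poles apart, had the greatest span under the TNF-α label. The labels do not say what the numbers share. The share of mitochondrial counts, a sign of RNA quality, had medians of 0.626, 0.599, 0.601 and 0.607% in numbers 1 to 4 of the IL-1β label and 0.644, 0.680, 0.618 and 0.655% in those of the TNF-α label, and its part in the pattern was not tested. This spread counted as replicate error in every test that follows, and the standard errors of the members were larger than those of other genes, with a median of 0.22 against 0.17 log2 units for the stimulus comparisons.

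**Figure D2:**
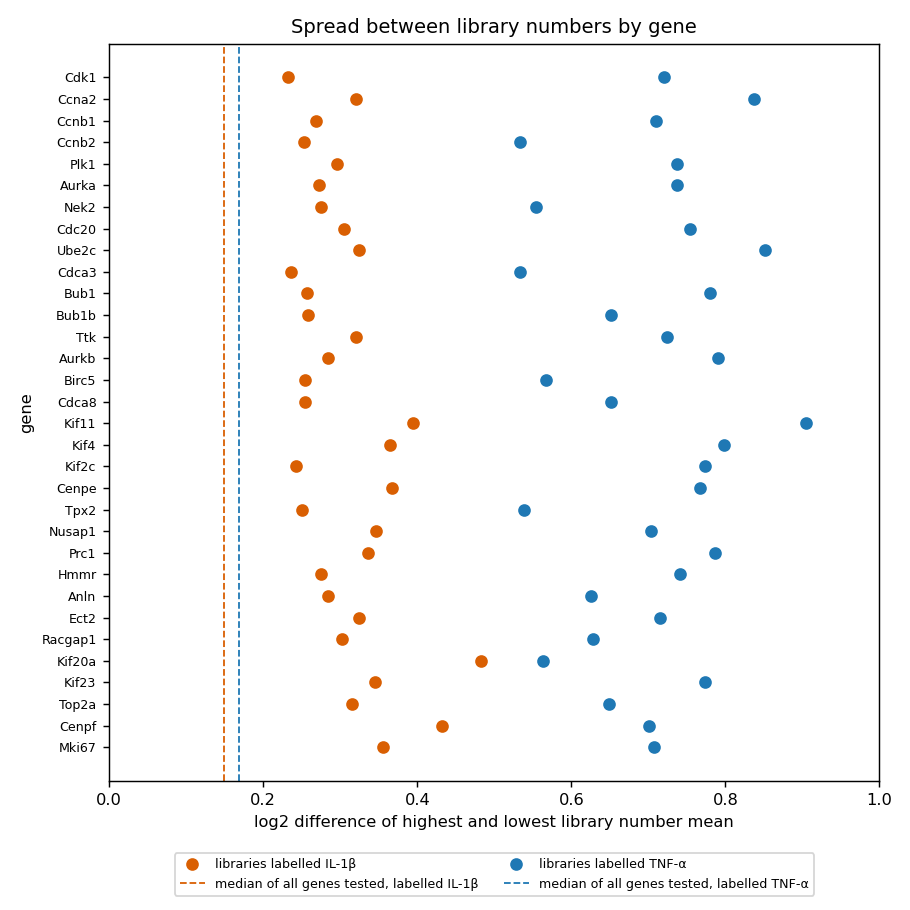
Log2 difference between the highest and the lowest of the 4 library-number means (horizontal axis) for each of the 32 genes (vertical axis), labelled IL-1β in orange and TNF-α in blue, with dashed lines at the medians of all genes tested. Every point lies right of its line, and Kif11 reaches 0.90 under the TNF-α label.

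Against the unstimulated group, the median of the members lay above 0 after either stimulus at every time, but few of the differences passed the test after adjustment. Without SC-514, 10 of 320 tests of a member against the unstimulated group passed, all of them higher (3.125%, against 6.46% of the tests of all genes), in edgeR's quasi-likelihood test with Benjamini-Hochberg adjustment over all genes of a comparison and a threshold of 0.05. At an unadjusted p under 0.05 there were 118 of the 320, and the counts by time are given below beside those of all genes. The rises were those of Ube2c, Aurka, Plk1, Nusap1, Cdc20 and Kif23 at 360 min and Birc5 at 30 min under the IL-1β label, and of Aurka and Ube2c at 360 min and Prc1 at 120 min under the TNF-α label. The median difference of the 32 was between 0.22 and 0.46 log2 units, while that of all genes lay within 0.02 of 0.

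By time, 0, 1, 0, 0 and 6 members rose at 15, 30, 60, 120 and 360 min in libraries labelled IL-1β, where 0.121, 0.725, 2.74, 8.17 and 12.3% of all genes tested did. In libraries labelled TNF-α the counts were 0, 0, 0, 1 and 2, against 0.0836, 0.557, 4.15, 9.14 and 3.62% of all genes. No member fell, where 0.0464, 0.232, 0.622, 4.36 and 9.4% of all genes did under the IL-1β label and 0.102, 0.102, 1.25, 5.11 and 1.8% under the TNF-α label. At an unadjusted p under 0.05 the members counted 10, 19, 16, 4 and 15 of 32 under the IL-1β label. Of all 10766 genes, 1120, 1435, 1598, 2624 and 3411 had such a p. Under the TNF-α label the members counted 14, 10, 12, 4 and 14, against 1293, 1073, 1770, 2733 and 1903 of all genes. DESeq2 called 0 members in the 6 comparisons with a count of 0, and 0 for the TNF-α label at 120 min. Above 0, whether called or not, stood 30 to 32 of the 32 under the IL-1β label and 29 to 32 under the TNF-α label. All 10 comparisons share the same 4 unstimulated libraries, so these signs are not separate observations, and the unstimulated group was sampled once with a column prefix of its own, so a difference of that set from the stimulated sets cannot be told apart from the stimuli. With RLE scaling of the libraries in place of TMM, the share of higher genes among all those called was 42.86, 56.48, 54.6 and 42.71%, in place of 72.22, 75.73, 65.23 and 56.6%, at 15, 30, 120 and 360 min under the IL-1β label. Under the TNF-α label it was 24, 58.65, 50.83 and 49.18%, in place of 45, 76.8, 64.15 and 66.78%, at 15, 60, 120 and 360 min. All 32 members stood above 0 at 360 min under the TNF-α label with either scaling, and 29 in place of 30 under the IL-1β label.

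Among the drivers of mitotic entry, Cdk1, the kinase itself, had 192, 191, 159.8 and 163 CPM in libraries 1 to 4 of the IL-1β label and 156, 144, 247 and 251 under the TNF-α label at 360 min, against 145, 118, 125 and 140.3 CPM in the unstimulated libraries. All stimulated values except library 2 of the TNF-α label stood above the highest unstimulated value, and neither difference passed the test. Plk1, the Polo-like kinase of spindle assembly, had 114, 109, 116 and 73.5 CPM under the IL-1β label and 74.1, 61.4, 112 and 107 under the TNF-α label, against 65.0, 59.6, 62.3 and 67.7 CPM without stimulus. The groups did not overlap for the IL-1β label, where Plk1 rose by 0.69 on the log2 scale (SE 0.21, adjusted p = 0.00794) in edgeR. For the TNF-α label they overlapped, and the difference of 0.47 did not pass (adjusted p = 0.219 in edgeR). Aurka, the kinase of the spindle poles, had 101, 94.0, 101 and 91.1 CPM under the IL-1β label and 87.0, 76.5, 104 and 116 under the TNF-α label, against 57.7, 46.7, 48.8 and 70.2 CPM without stimulus. All 8 stimulated libraries stood above all 4 unstimulated ones. The edgeR differences were 0.79 on the log2 scale (SE 0.23, adjusted p = 0.00519) under the IL-1β label and 0.77 on the log2 scale (SE 0.23, adjusted p = 0.0242) under the TNF-α label.

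Among the partners of APC/C, Ube2c, the enzyme that hands ubiquitin to it, had 202, 198, 179.9 and 178 CPM under the IL-1β label and 148, 119.9, 218 and 249 under the TNF-α label at 360 min, against 105, 124, 95.2 and 109.7 CPM in unstimulated libraries. It was far above the unstimulated range in all 4 libraries labelled IL-1β, while library 2 labelled TNF-α lay inside that range. In edgeR it rose by 0.81 on the log2 scale (SE 0.22, adjusted p = 0.00357) under the IL-1β label and by 0.76 on the log2 scale (SE 0.23, adjusted p = 0.0243) under the TNF-α label. Cdc20, the activator of APC/C, had 104, 102, 101 and 89.4 CPM under the IL-1β label and 83.8, 75.5, 104 and 118 under the TNF-α label, against 67.1, 57.0, 72.4 and 73.4 CPM without stimulus. Both stimulated groups lay above the unstimulated one without overlap, but only the difference under the IL-1β label passed in edgeR, at 0.56 on the log2 scale (SE 0.21, adjusted p = 0.0396), and for Cdc20 the labels did not differ beyond their spread at that time (0.06, adjusted p = 0.917 in edgeR). Cdc20 shares its locus with Elovl1, an elongase of fatty acids, and the strand used for counting is not given. Elovl1 differed by 0.12 log2 units in the same comparison (adjusted p = 0.502 in edgeR).

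Bub1b, the checkpoint protein BubR1, had 76.3, 86.6, 57.7 and 64.3 CPM under the IL-1β label and 67.7, 56.4, 74.8 and 69.7 under the TNF-α label at 360 min, against 51.2, 50.1, 63.2 and 46.0 CPM without stimulus. Library 3 of the unstimulated group lay above the lowest stimulated values, and no difference passed. Birc5, or survivin, a subunit of the chromosomal passenger complex that corrects attachments, had 202, 192, 179.9 and 177 CPM under the IL-1β label and 169, 150.1, 201 and 235 under the TNF-α label, against 155, 126, 126 and 175 CPM. Its libraries labelled IL-1β lay above all 4 unstimulated ones, the lowest by a narrow margin, without a call at 360 min. At 30 min Birc5 had 208, 208, 202 and 259.8 CPM under the IL-1β label and rose by 0.59 on the log2 scale (SE 0.16, adjusted p = 0.0425) in edgeR. That call was lost with RLE scaling and without any one of the library numbers.

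Of the spindle and chromosome proteins, Cenpe, a kinetochore kinesin, had 179.9, 154, 120.5 and 124 CPM under the IL-1β label and 145, 97.7, 154 and 189 under the TNF-α label, against 99.6, 97.7, 89.3 and 98.4 CPM. All but library 2 of the TNF-α label exceeded the unstimulated libraries, and neither difference passed. Tpx2, which activates Aurora A on microtubules, had 215, 228, 187 and 179 CPM and 195, 169, 217 and 227 CPM under the labels IL-1β and TNF-α, against 157, 159, 168 and 179.8 CPM, with overlap for both and no call. Nusap1, which bundles spindle microtubules, had 134, 95.7, 97.9 and 67.7 CPM under the IL-1β label and 79.0, 68.5, 96.1 and 100.2 under the TNF-α label, against 63.5, 57.9, 63.2 and 62.9 CPM. The 8 stimulated values were all above the 4 unstimulated ones, which lay close together. The rise passed under the IL-1β label at 0.67 on the log2 scale (SE 0.24, adjusted p = 0.0300) in edgeR. Prc1, which bundles the microtubules of the midzone, rose at 120 min under the TNF-α label with 115, 67.5, 117 and 145 CPM, against 77.2, 57.0, 64.0 and 74.2 CPM without stimulus, at 0.71 on the log2 scale (SE 0.23, adjusted p = 0.0249) in edgeR. Library 2 of the TNF-α label overlapped the unstimulated libraries. Prc1 overlaps Rccd1 on the opposite strand, which had 2648 counts over all libraries, against 19759 for Prc1, and did not pass in that comparison (0.07 on the log2 scale).

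Of the genes of cytokinesis, Kif23, a kinesin of the midbody, had 84.6, 90.7, 71.1 and 54.3 CPM under the IL-1β label and 66.1, 53.4, 74.8 and 92.6 under the TNF-α label at 360 min, against 52.7, 49.3, 51.4 and 47.6 CPM without stimulus. Both groups stood above the unstimulated one, and the IL-1β difference passed at 0.58 on the log2 scale (SE 0.22, adjusted p = 0.0487) in edgeR. That call was lost in 7 of 12 alternative runs, among them RLE scaling, DESeq2 and the run without the libraries under 100000 counts. Anln, the scaffold anillin, had 129, 101, 105 and 86.1 CPM under the IL-1β label and 105, 88.6, 133 and 171 under the TNF-α label, against 93.1, 113, 105 and 112 CPM, and the groups overlapped. Top2a had 777, 846, 684 and 592 CPM and 629, 566, 906 and 880.1 CPM under the labels IL-1β and TNF-α, against 586, 516, 591 and 568 CPM in unstimulated libraries. Its libraries labelled IL-1β lay above the unstimulated ones by a narrow margin, and no difference passed in edgeR.

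The stimulus calls depended on the estimate of spread. When each comparison was fitted on its own stimulated group and the unstimulated libraries alone, with the filter redone, 85 tests passed, all higher. They were 61 of 155 under the IL-1β label and 24 of 155 under the TNF-α label. The share of all genes in those fits is not given here, so the members are not set against other genes there. Without the libraries numbered 1, or without those numbered 3, 0 of the 320 tests passed. Under the IL-1β label at 360 min, the calls of Cdc20, Nusap1 and Kif23 were lost with RLE scaling, and those of Cdc20 and Kif23 with DESeq2. DESeq2 also lost the calls of Aurka at 360 min and Prc1 at 120 min under the TNF-α label. Outside the members, 5 of 87 wider mitosis genes tested rose and 1 fell at 360 min under the IL-1β label, and 1 rose and 0 fell under the TNF-α label. In the same comparison under the IL-1β label, 3 of 53 DNA replication genes rose and 2 fell, and 8 of 11 fibroblast markers fell. Of all genes 12.3% rose and 9.4% fell in that comparison, and 3.62% rose and 1.8% fell under the TNF-α label. The part of the fibroblast markers in the result was not tested.

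**Figure D3:**
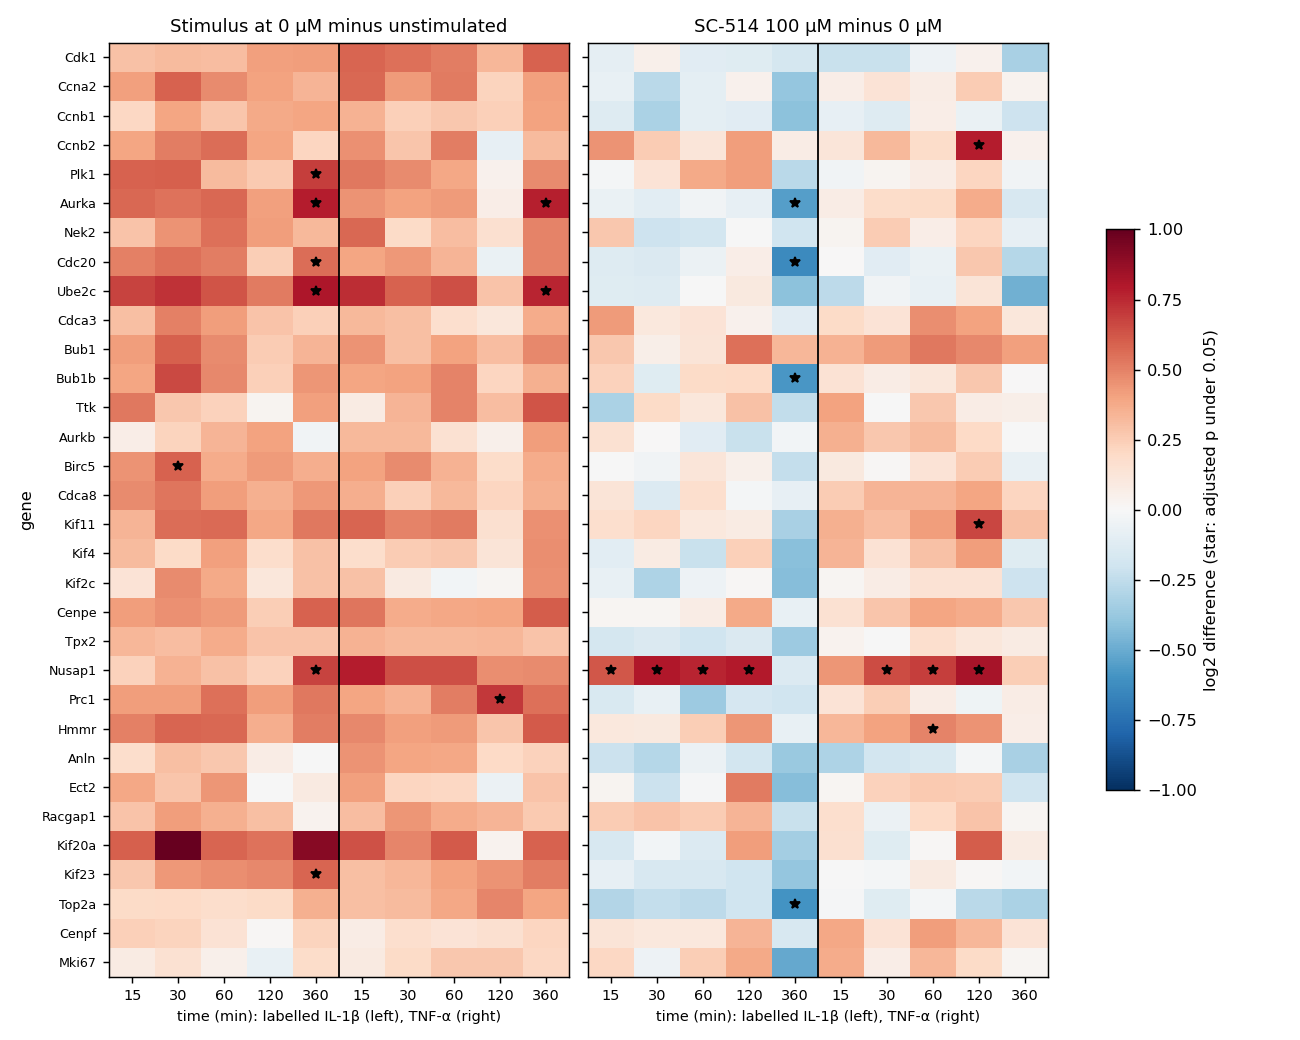
Log2 difference of each of the 32 genes (vertical axis, by role) for each stimulus at 0 µM SC-514 against the unstimulated group (left block) and for SC-514 at 100 against 0 µM (right block), by label and time (horizontal axis), with stars for adjusted p under 0.05. The left block is above 0 almost throughout with 10 stars, and in the right block the line of Nusap1 holds 7 of the 14 stars.

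Most differences of these genes between SC-514 and 0 µM did not pass the test, in a fit that does not use the library number. At 100 µM, against 0 µM at the same time, 10 of 320 tests were higher and 4 were lower (4.375% in all), while 24.9% of the tests of all genes passed. The median size of the members' differences was 0.17 log2 units, against 0.24 for all genes, and their median standard error was 0.21, against 0.16. The spread by library number is part of that error, so the share of members called is not comparable to that of all genes on the size of the differences alone. With the library number as a block within each label, 80 of the 320 tests passed (25%), against 28.1% of those of all genes. That run was added after seeing the data. In the reported fit, the calls fell into a higher level of Nusap1 from 15 to 120 min, a higher level of Ccnb2, Kif11 and Hmmr in libraries labelled TNF-α at 60 or 120 min, and a lower level of Cdc20, Top2a, Bub1b and Aurka in libraries labelled IL-1β at 360 min. At 50 µM 5 tests were higher and 0 lower, where 15.3% of the tests of all genes passed. At 25 µM 4 were higher and 0 lower, where 8.58% did. All 9 were of Nusap1 or Ccnb2.

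The numbers of members that were higher at 100 µM were 1, 1, 1, 1 and 0 from 15 to 360 min in libraries labelled IL-1β, where 11.2, 10, 11.5, 14.3 and 13.9% of all genes were, and 0, 1, 2, 3 and 0 in libraries labelled TNF-α, where 8.99, 7.12, 8.32, 11.5 and 11.4% were. The numbers of lower members were 0, 0, 0, 0 and 4 under the IL-1β label and 0 at each time under the TNF-α label. Of all genes, 13.5, 12.5, 14.4, 16.2 and 15.7% were lower under the IL-1β label and 13.2, 10.8, 13.6, 15 and 15.4% under the TNF-α label. For the TNF-α label at 15 and at 360 min, where edgeR called 0, 1 member had an unadjusted p under 0.05 at each time and DESeq2 called 0. Of all 10766 genes, 3593 and 3932 had such a p. With the block within each label, 5 members were higher and 2 lower at 15 min, and 1 was higher and 5 lower at 360 min. The share of all genes in that run is not given by time. With RLE scaling the median of all genes moved by 0.12 log2 units in the comparison of 100 with 0 µM at 360 min under the TNF-α label, more than in any other comparison. The share of higher genes among all those called was then 68.73% in place of 42.39%, and from 15 to 120 min it was 60.91, 50.25, 56.45 and 59.09% in place of 40.45, 39.84, 37.9 and 43.28%. Under the IL-1β label it was 59.39% in place of 45.39% at 15 min and 63.63% in place of 46.95% at 360 min.

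Nusap1 had the most calls of all members, higher in 13 of the 30 comparisons of an SC-514 concentration with 0 µM. Its level per library at 15 min was 132, 119.6, 101 and 94.0 CPM at 100 µM, against 72.9, 63.7, 87.3 and 66.3 CPM at 0 µM, under the IL-1β label. At 30 min it was 153, 155, 131 and 110.1 CPM, against 79.0, 86.9, 72.8 and 77.2 CPM, and at 60 min 135, 125, 129.8 and 124 CPM, against 86.7, 83.3, 73.8 and 58.5 CPM. At 120 min it was 137, 134, 125 and 107 CPM at 100 µM, against 77.5, 70.3, 78.5 and 64.1 CPM at 0 µM. The groups did not overlap at any of these 4 times. The edgeR differences were 0.62 on the log2 scale (SE 0.23, adjusted p = 0.0324) at 15 min, 0.80 on the log2 scale (SE 0.22, adjusted p = 0.00390) at 30 min, 0.76 on the log2 scale (SE 0.22, adjusted p = 0.00437) at 60 min and 0.79 on the log2 scale (SE 0.23, adjusted p = 0.00395) at 120 min.

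At 360 min under the IL-1β label Nusap1 had 84.4, 99.2, 88.3 and 88.0 CPM at 100 µM, against 134, 95.7, 97.9 and 67.7 CPM at 0 µM, and the groups overlapped. With no inhibitor it averaged 72.5, 79.0, 75.6, 72.6 and 98.9 CPM from 15 to 360 min. The level at 0 µM was thus highest, and that at 100 µM lowest, at the last time.

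In libraries labelled TNF-α Nusap1 had 127, 124, 159.5 and 168 CPM at 100 µM at 15 min, against 89.2, 73.3, 136 and 129.9 CPM at 0 µM, a difference of 0.44 that did not pass (adjusted p = 0.117 in edgeR). At 30 min the libraries had 129, 117, 181 and 186 CPM, against 93.2, 58.2, 110.5 and 123 CPM. At 60 min they had 132, 110.1, 181 and 194 CPM, against 78.9, 75.0, 131 and 110.1 CPM. The groups overlapped at these times, with numbers 3 and 4 the higher ones at either concentration, while each library was higher than the one with its number at 0 µM. At 120 min the values were 121, 125, 176 and 176 CPM at 100 µM, against 71.9, 61.3, 117 and 90.2 CPM at 0 µM, and the groups stood apart. The edgeR differences were 0.65 on the log2 scale (SE 0.21, adjusted p = 0.0188) at 30 min, 0.69 on the log2 scale (SE 0.21, adjusted p = 0.00985) at 60 min and 0.82 on the log2 scale (SE 0.21, adjusted p = 0.00129) at 120 min. At 360 min Nusap1 had 99.8, 83.8, 112 and 111 CPM, against 79.0, 68.5, 96.1 and 100.2 CPM, which did not pass. The calls under the IL-1β label at 30 to 120 min and under the TNF-α label at 120 min passed in each alternative run. The call at 15 min under the IL-1β label was lost without the libraries numbered 1 or 2, and those at 30 and 60 min under the TNF-α label were lost in the fit of the compared groups. The call at 30 min was also lost without the libraries numbered 1, 2 or 3, and the one at 60 min without those numbered 1 or 4.

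Lower concentrations gave values between those at 0 and 100 µM or near those at 100 µM. Under the IL-1β label at 60 min Nusap1 averaged 75.6 ± 12.6, 116 ± 12.5, 118 ± 14.3 and 128 ± 5.04 CPM at 0, 25, 50 and 100 µM (SD, n = 4 each), and at 120 min 72.6 ± 6.74, 125 ± 24.3, 131 ± 15.8 and 126 ± 13.7 CPM. Under the TNF-α label at 60 min the averages were 98.7 ± 26.5, 125 ± 39.2, 129 ± 45.9 and 154 ± 39.8 CPM. Under the IL-1β label the averages at 25 and 50 µM lay nearer to that at 100 µM than to that at 0 µM, and under the TNF-α label each step was smaller than the SD of the groups. At 25 µM the differences under the IL-1β label passed at 60 min (0.62, adjusted p = 0.0448 in edgeR) and at 120 min (0.79, adjusted p = 0.00622), where 5.74 and 6.75% of all genes were higher. At 50 µM they passed at 15, 60 and 120 min under the IL-1β label and at 120 min under the TNF-α label, where 6.46, 7.65, 9.97 and 5.32% of all genes were higher. The call at 25 µM and 60 min was lost with RLE scaling, with DESeq2 and without any one library number.

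Nusap1 overlaps Oip5, a gene of centromere assembly, and reads of the pair may not be separable without strand. Oip5 had 2216 counts over all libraries, against 24031 for Nusap1, and averaged 6.07 to 15.7 CPM in the groups compared. It passed in 2 of the 15 comparisons in which Nusap1 did, counting those of stimulus and time. They were those of 100 with 0 µM at 120 min under the IL-1β label (0.88 on the log2 scale, adjusted p = 0.0216 in edgeR) and at 60 min under the TNF-α label (1.06, adjusted p = 0.0109).

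**Figure D4:**
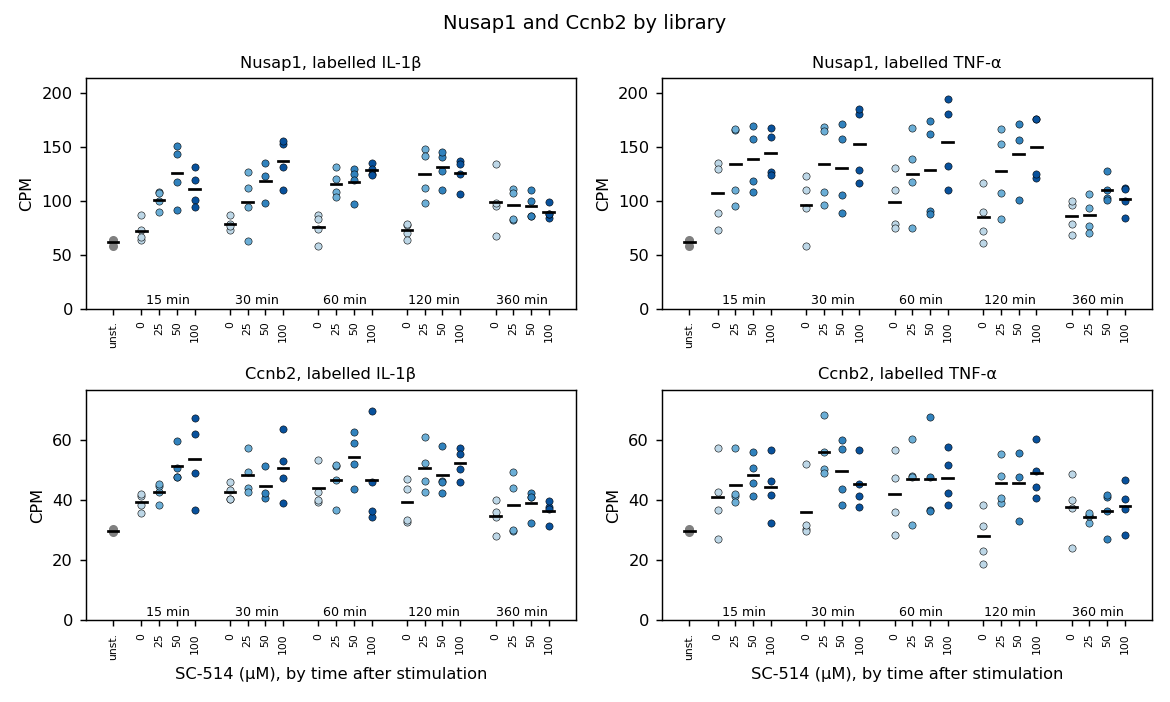
CPM of Nusap1 and Ccnb2 in every library (points) with group means (dashes) by SC-514 concentration and time, for both stimulus labels. Nusap1 at 100 µM lies above 0 µM without overlap at 15 to 120 min under the IL-1β label, and at 360 min the groups overlap.

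Ccnb2, or cyclin B2, one of the partners of CDK1, was the only other member called in more than 1 comparison of SC-514 with 0 µM. At 120 min under the TNF-α label it had 49.7, 40.8, 44.4 and 60.3 CPM at 100 µM, against 31.5, 18.7, 23.0 and 38.3 CPM at 0 µM. The groups stood apart, and the edgeR difference was 0.79 on the log2 scale (SE 0.20, adjusted p = 0.00149). With 25 µM it had 48.0, 39.0, 40.5 and 55.1 CPM (0.70, adjusted p = 0.0318 in edgeR), where 4.03% of all genes were higher. It also passed at 50 µM (0.70, adjusted p = 0.0215 in edgeR), a group that holds the library with 3839 counts, and the call stayed without that library. With DESeq2 the calls at 25 and 50 µM were lost and that at 100 µM was not. The calls at 25 µM, at 30 and at 120 min, were also lost without the libraries numbered 1, 2 or 3, and that at 50 µM without those numbered 2 or 3. At 30 min with 25 µM Ccnb2 had 50.2, 49.0, 55.9 and 68.2 CPM, against 30.3, 29.5, 31.8 and 51.8 CPM at 0 µM (0.63, adjusted p = 0.0287 in edgeR), where 3.76% of all genes were higher. Without stimulus Ccnb2 had 29.6, 30.2, 29.5 and 29.8 CPM, so the 0 µM libraries at 120 min lay on both sides of the unstimulated range and the 100 µM libraries all lay above it. Ccnb1, which encodes the other B-type cyclin of the list, did not pass in any of the 30 comparisons, and its differences were between -0.41 and 0.07.

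Kif11 had 59.2, 48.5, 86.5 and 79.3 CPM at 100 µM at 120 min under the TNF-α label, against 44.2, 26.0, 52.0 and 51.0 CPM at 0 µM. The groups overlapped through library 2 at 100 µM, which was the lowest, and the edgeR difference was 0.67 on the log2 scale (SE 0.26, adjusted p = 0.0457). Hmmr, a microtubule-binding protein of the spindle poles, had 110.3, 91.0, 134 and 168 CPM at 100 µM at 60 min under the TNF-α label, against 81.4, 73.5, 101 and 110.1 CPM at 0 µM. These groups overlapped too, and the edgeR difference was 0.50 on the log2 scale (SE 0.19, adjusted p = 0.0473). Both calls were lost when the libraries numbered 1, 3 or 4 were left out. At 120 min 28 of the 32 members stood above 0 at 100 µM under the TNF-α label, with a median of 0.25, against a median of 0.03 for all genes. In the same comparison 1 of 11 fibroblast markers rose and 5 fell, with summed levels of 8798 to 9504 CPM at 100 µM, against 8950 to 9541 CPM at 0 µM. At 60 min 1 of them rose and 6 fell, and at 360 min 0 rose and 9 fell. Of all genes, 8.32, 11.5 and 11.4% rose and 13.6, 15 and 15.4% fell at 60, 120 and 360 min. The share of mitochondrial counts at 120 min was 0.632 to 0.734% at 100 µM, against 0.469 to 0.630% at 0 µM under the TNF-α label, and 0.636 to 0.862% at 100 µM, against 0.576 to 0.599% at 0 µM under the IL-1β label, where Nusap1 was higher. The part of these values in the results was not tested. Under the IL-1β label the medians from 15 to 120 min lay between -0.04 and 0.07, and those at 15 and 60 min changed sign with RLE scaling.

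Some members leaned one way through the 30 comparisons with 0 µM, mostly without passing. Top2a stood below 0 in all 30, Anln, the scaffold of the cleavage furrow, in 29, and Ccnb1 in 28. Bub1, a checkpoint kinase, and Ccnb2 stood above 0 in 28, and Nusap1 and Cdca3, a partner of mitotic entry, in 27. The B-type cyclins Ccnb1 and Ccnb2 thus leaned in opposite directions. With RLE scaling Top2a stood below 0 in 27, Anln in 28 and Ccnb1 in 26. Bub1, Ccnb2, Nusap1 and Cdca3 then stood above 0 in 29, 29, 28 and 27. Groups at 0 µM are shared by the 3 concentrations, so these signs are not independent and no test was made of them.

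At 360 min under the IL-1β label, 4 of the 32 members were lower at 100 µM, where 15.7% of all genes were. The count of members does not exceed that share. Cdc20 had 56.5, 73.7, 66.4 and 58.7 CPM at 100 µM, against 104, 102, 101 and 89.4 CPM at 0 µM. Top2a had 444, 546, 487 and 435 CPM, against 777, 846, 684 and 592 CPM. For both genes the highest library at 100 µM lay well below the lowest at 0 µM. Bub1b had 40.9, 48.3, 56.3 and 44.5 CPM at 100 µM, against 76.3, 86.6, 57.7 and 64.3 CPM at 0 µM. Aurka had 67.8, 63.2, 58.9 and 74.8 CPM, against 101, 94.0, 101 and 91.1 CPM. These groups did not overlap either, with a narrow gap for Bub1b. The edgeR differences were -0.64 on the log2 scale (SE 0.21, adjusted p = 0.0148) for Cdc20, -0.60 on the log2 scale (SE 0.19, adjusted p = 0.0101) for Top2a, -0.58 on the log2 scale (SE 0.20, adjusted p = 0.0188) for Bub1b and -0.55 on the log2 scale (SE 0.22, adjusted p = 0.0492) for Aurka.

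Over all 32 members the median at 360 min was -0.30 under the IL-1β label, with 2 members above 0, against a median of 0.04 for all genes. With RLE scaling the median was -0.21 and 6 members stood above 0. The ranges at 100 µM overlapped those of the unstimulated libraries for all 4 genes. Without stimulus Cdc20 had 67.1, 57.0, 72.4 and 73.4 CPM and Top2a 586, 516, 591 and 568 CPM. For Top2a 3 of the 4 libraries at 100 µM were below every unstimulated one.

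Library 1 at 100 µM and 360 min is the one with 15303 detected genes. Without it and its counterpart at 120 min, Top2a was the 1 member that remained lower, and without the libraries numbered 1 in every group 0 members passed. Cdc20 was also lost without the libraries numbered 3, Bub1b without those numbered 2, and Aurka without those numbered 3 or 4, without the 2 shallow libraries, with RLE scaling and with DESeq2. In the same comparison 4 of 11 fibroblast markers fell and 0 rose. Of 87 wider mitosis genes 9 fell and 1 rose, and of 53 genes of DNA replication and the G1/S transition 4 fell and 4 rose. Of all genes 13.9% rose and 15.7% fell. The summed markers of other cell types were 85.7 CPM in library 1 and 14.1 to 27.1 CPM in the other 3 at 100 µM, against 31.1 to 38.6 CPM at 0 µM, and 0 of the 4 such markers tested passed. The share of mitochondrial counts was 0.621 to 0.758% at 100 µM, against 0.439 to 0.641% at 0 µM. The part of these changes in the result was not tested.

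In libraries labelled TNF-α none of the 4 genes passed at 360 min in the reported fit. Cdc20 had 80.4, 66.7, 65.9 and 99.5 CPM at 100 µM, against 83.8, 75.5, 104 and 118 CPM at 0 µM, and Top2a had 524, 467, 655 and 742 CPM, against 629, 566, 906 and 880.1 CPM. Each library was lower than the one with its number at 0 µM, although the groups overlapped. Bub1b had 66.7, 49.2, 61.4 and 91.9 CPM, against 67.7, 56.4, 74.8 and 69.7 CPM, and Aurka had 93.1, 65.3, 82.7 and 102 CPM, against 87.0, 76.5, 104 and 116 CPM. Library 4 was higher at 100 µM for Bub1b and library 1 for Aurka, while the other libraries were lower than those with their number. How far the effect of 100 µM differed between the labels (IL-1β minus TNF-α) was tested directly. It was -0.35 for Cdc20 (95% interval -0.92 to 0.21), -0.28 for Top2a (-0.80 to 0.23), -0.59 for Bub1b (-1.11 to -0.06) and -0.39 for Aurka (-0.98 to 0.20). None passed after adjustment, with an adjusted p of 0.278 in edgeR for Bub1b.

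**Figure D5:**
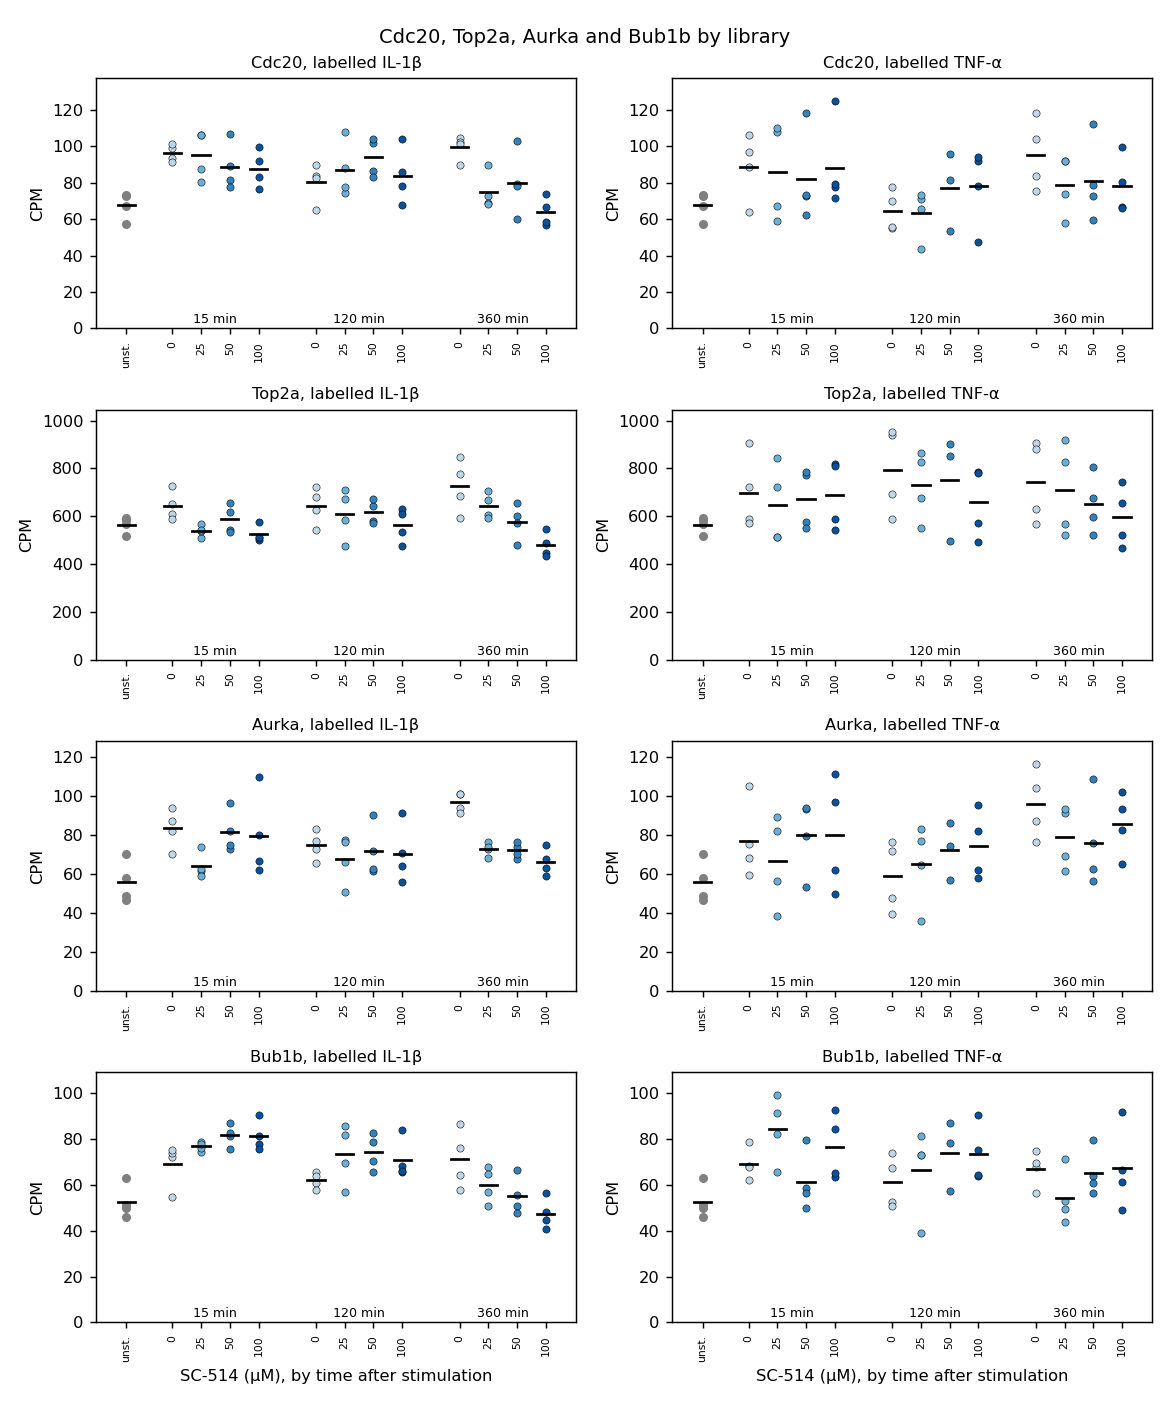
CPM of Cdc20, Top2a, Aurka and Bub1b in every library (points) at 15, 120 and 360 min, by SC-514 concentration, for both stimulus labels. At 360 min under the IL-1β label the 100 µM libraries lie below the 0 µM libraries for all 4 genes, for example 435 to 546 CPM of Top2a at 100 µM, against 592 to 846 CPM at 0 µM.

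A slope over 0, 25, 50 and 100 µM, in log2 units per 100 µM, passed in 12 tests upward and 4 downward of 320, where 24.8% of the tests of all genes passed. Nusap1 had a positive slope at 15 to 120 min under the IL-1β label (0.57, 0.78, 0.65 and 0.64), where 10.7, 10, 10.5 and 14.3% of all genes had one, and at 30 to 120 min under the TNF-α label (0.56, 0.63 and 0.73), the first of these against 6.59% of all genes. At 60 min under the TNF-α label the slopes of Cdca3 (0.47, adjusted p = 0.0385 in edgeR) and Bub1 (0.57, adjusted p = 0.0395) passed, where 8.16% of all genes had a positive slope. At 120 min those of Kif11 (0.63, adjusted p = 0.0403), Ccnb2 (0.65, adjusted p = 0.00513) and Cdca8, or borealin, of the passenger complex (0.47, adjusted p = 0.0436) passed in edgeR, where 12.2% of all genes did. The slopes of Cdca3, Bub1, Kif11 and Cdca8 were lost without the libraries numbered 1 and without those numbered 3. With RLE scaling the share of positive slopes among all those called was 57 and 62.19% at 60 and 120 min, in place of 38.08 and 43.99%, and 62.65% in place of 47.85% at 360 min under the IL-1β label.

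The 4 downward slopes were all at 360 min under the IL-1β label, where 16% of all genes had one. Top2a averaged 724 ± 111, 643 ± 53.2, 577 ± 73.6 and 478 ± 50.5 CPM at 0, 25, 50 and 100 µM (SD, n = 4 each), lower at each step, with a slope of -0.59 (adjusted p = 0.00778 in edgeR). Bub1b averaged 71.2, 60.1, 55.1 and 47.5 CPM, in the same order (adjusted p = 0.0198 in edgeR). Cdc20 averaged 99.3, 74.8, 80.0 and 63.8 CPM, with the 50 µM group above the 25 µM group, and a slope of -0.55 (adjusted p = 0.0314 in edgeR). Tpx2 averaged 202, 205, 178 and 157 CPM, and its slope of -0.40 passed as well (adjusted p = 0.0304 in edgeR). The slopes of Cdc20 and Tpx2 were lost with RLE scaling and with DESeq2, and without the libraries numbered 1 none of the 4 passed. Without the library with 15303 detected genes and its counterpart at 120 min, those of Cdc20, Tpx2 and Bub1b were lost and that of Top2a was not.

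Time was compared directly between 360 and 15 min after stimulation. At 0 µM, 0 members passed under either label. At an unadjusted p under 0.05 there were 0 under the IL-1β label and 1 under the TNF-α label, DESeq2 called 0, and 15.2 and 2.54% of all genes passed in edgeR. Without adjustment 2754 and 1331 of all 10766 genes had a p under 0.05. At 100 µM under the IL-1β label 5 members were lower at 360 min, where 13.8% of all genes were. The median of the 32 was -0.27, with 5 above 0, against a median of 0.01 for all genes. Under the TNF-α label 1 member, Nusap1, was lower at 100 µM (-0.51, adjusted p = 0.0479 in edgeR), where 10.7% of all genes were. With RLE scaling 58.34% of all genes called there were higher, in place of 47.31%. DESeq2 called 0 members there, and leaving out any one library number ended the call.

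Among the 5, Bub1b had 40.9, 48.3, 56.3 and 44.5 CPM at 360 min, against 81.5, 77.7, 90.5 and 75.7 CPM at 15 min. Racgap1, a subunit of centralspindlin in cytokinesis, had 62.6, 69.3, 63.1 and 55.8 CPM, against 103, 118, 97.8 and 98.2 CPM, and its partner Ect2, the exchange factor for RhoA, had 29.6, 32.5, 25.2 and 18.9 CPM, against 52.2, 45.7, 37.5 and 42.8 CPM. The times stood apart for all 3 genes. The edgeR differences were -0.77 on the log2 scale (SE 0.19, adjusted p = 0.000902) for Bub1b, -0.73 on the log2 scale (SE 0.20, adjusted p = 0.00229) for Racgap1 and -0.74 on the log2 scale (SE 0.24, adjusted p = 0.0129) for Ect2. Cdca3 had 42.6, 40.4, 45.4 and 53.9 CPM at 360 min, against 80.1, 73.1, 60.3 and 61.7 CPM at 15 min, without overlap (-0.60 on the log2 scale, SE 0.19, adjusted p = 0.00940 in edgeR). Ccnb2 had 31.3, 37.7, 39.5 and 36.9 CPM, against 67.2, 61.7, 48.9 and 36.5 CPM, and library 4 hardly differed between the times (-0.56 on the log2 scale, SE 0.20, adjusted p = 0.0246 in edgeR). The calls of Cdca3 and Ect2 were lost without the libraries numbered 1, and that of Cdca3 also without those numbered 2. The call of Ccnb2 was lost with DESeq2, without the libraries numbered 1 or 2, and without the library with 15303 detected genes and its counterpart at 120 min.

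At 0 µM Bub1b had 76.3, 86.6, 57.7 and 64.3 CPM at 360 min, against 72.2, 74.1, 75.3 and 54.7 CPM at 15 min, with overlap. The difference between the 2 time effects, 100 µM minus 0 µM, was -0.82 on the log2 scale (SE 0.27, adjusted p = 0.0435) for Bub1b in edgeR, the 1 member that passed under the IL-1β label, where 3.99% of all genes had a negative one. DESeq2 called 0 members there. Under the TNF-α label 0 members passed, 0 had an unadjusted p under 0.05, DESeq2 called 0, and 5.32% of all genes passed in edgeR. Of all 10766 genes, 1910 had an unadjusted p under 0.05 there. Beside the 5 members, 15 of 87 wider mitosis genes, 11 of 53 DNA replication genes and 8 of 11 fibroblast markers were lower at 360 than at 15 min at 100 µM under the IL-1β label, and the part of those changes in the result was not tested.

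Between the stimulus labels no member passed the test. At 0 µM, IL-1β against TNF-α, 0 of 32 passed at each of the 5 times in edgeR, where 0.0372, 0.186, 1.26, 1.02 and 9.46% of all genes did. At an unadjusted p under 0.05 there were 1, 0, 0, 1 and 0 members, and DESeq2 called 0. Of all 10766 genes, 750, 887, 1023, 1206 and 2218 had such a p. The differences ran from -0.56 for Nusap1 at 15 min to 0.51 for Kif20a at 30 min. For Nusap1 at 15 min the libraries labelled IL-1β had 72.9, 63.7, 87.3 and 66.3 CPM, against 89.2, 73.3, 136 and 129.9 CPM in those labelled TNF-α, and the 95% interval was -1.01 to -0.10. The effect of 100 µM SC-514 was not shown to differ between the labels either, with 0 members at each time in edgeR, 1, 0, 0, 0 and 2 at an unadjusted p under 0.05 and 0 in DESeq2, while 0.149, 0.0557, 0.697, 1.07 and 1.98% of all genes passed. Without adjustment 812, 759, 1017, 1262 and 1557 of all 10766 genes had a p under 0.05. For Nusap1 the interval of that difference at 15 min was -0.42 to 0.79, and at 120 min it was -0.64 to 0.59, so effects that differ by up to these sizes are not shown to be alike.

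Of the 32 members, 19 passed in at least 1 of the 66 comparisons and 13 passed in none. The 13 were the kinases Cdk1, Aurkb, Ttk and Nek2, the cyclins Ccna2 and Ccnb1, the kinesins Cenpe, Kif4, Kif2c and Kif20a, the kinetochore protein Cenpf, the scaffold Anln, and Mki67. Their differences from the unstimulated group at 0 µM lay between -0.07, for Mki67, and 1.00, for Kif20a, on the log2 scale. Their differences at 100 µM from 0 µM lay between -0.51, for Mki67, and 0.61, for Kif20a, and those of 360 from 15 min between -0.62, for Mki67, and 0.54, for Ttk.

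Some cell cycle regulators outside the 32, named for the smallest adjusted p of their list, changed with 100 µM SC-514. Cdkn1b, the CDK inhibitor p27, averaged 63.2 ± 11.3 CPM at 100 µM at 120 min under the IL-1β label, against 29.8 ± 4.04 CPM at 0 µM (SD, n = 4 each; 1.09 on the log2 scale, adjusted p = 1.46e-09 in edgeR). Under the TNF-α label it averaged 59.9 ± 1.43 CPM, against 28.9 ± 5.76 CPM (1.06 on the log2 scale, adjusted p = 1.73e-09 in edgeR). Lin54, the subunit with which MuvB binds the CHR, averaged 58.5 ± 9.34 CPM at 100 µM at 120 min under the TNF-α label, against 34.9 ± 4.33 CPM (0.75 on the log2 scale, adjusted p = 6.77e-05 in edgeR). E2f8, a repressor of the E2F family, averaged 8.47 ± 2.21 CPM at 100 µM at 120 min under the IL-1β label, against 27.4 ± 6.26 CPM at 0 µM (-1.67 on the log2 scale, adjusted p = 3.59e-07 in edgeR). Trp53, which encodes p53, averaged 313 ± 34.8 CPM at 360 min under the IL-1β label, against 470.2 ± 19.7 CPM (-0.59 on the log2 scale, adjusted p = 2.68e-11 in edgeR).

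Of all genes tested, 11.2, 10, 11.5, 14.3 and 13.9% were higher and 13.5, 12.5, 14.4, 16.2 and 15.7% lower at 100 µM from 15 to 360 min under the IL-1β label, and 8.99, 7.12, 8.32, 11.5 and 11.4% were higher and 13.2, 10.8, 13.6, 15 and 15.4% lower under the TNF-α label. The counts in the lists beside the members are to be read against these shares. Of the 24 such regulators tested, 5, 3, 5, 2 and 3 were higher and 1, 3, 3, 3 and 2 lower at 100 µM from 15 to 360 min under the IL-1β label, and 4, 3, 3, 3 and 5 were higher and 1, 1, 1, 2 and 2 lower under the TNF-α label. Of the 87 wider mitosis genes, 2, 2, 2, 4 and 1 were higher and 2, 6, 2, 4 and 9 lower under the IL-1β label, and 4, 1, 8, 13 and 4 were higher and 4, 2, 2, 2 and 6 lower under the TNF-α label. Those that were higher at 120 min under the TNF-α label included Cdc25c, a phosphatase that activates CDK1, at 32.7 ± 10.6 CPM at 100 µM, against 17.2 ± 2.91 CPM at 0 µM (0.91 on the log2 scale, adjusted p = 0.00262 in edgeR). At 360 min under the IL-1β label, the related phosphatase Cdc25b averaged 29.9 ± 9.86 CPM, against 51.8 ± 11.1 CPM (-0.80 on the log2 scale, adjusted p = 0.00110 in edgeR). Bora, which helps Aurora A activate Plk1, averaged 19.1 ± 2.73 CPM, against 36.2 ± 2.85 CPM (-0.91 on the log2 scale, adjusted p = 0.000452 in edgeR). Of the 53 DNA replication genes, 4 were higher and 4 lower at 360 min under the IL-1β label, and 9 were higher and 0 lower under the TNF-α label.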

How the data were processed

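The authors' deposited table holds read counts per gene (whole numbers) for 164 libraries of 3T3 cells, and no value column was left unused. The 656 sample records are 4 for each library, so the library was the unit of every test. Alignment was to GRCm38 (mm10) with Bowtie2, per the submitters' processing notes, and the sources used here name neither the counting tool nor its use of strand. Symbols came from GENCODE M21, which matched 21858 identifiers and not 212.

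Counts were fitted with edgeR 4.0.16 in R 4.3.3 (filterByExpr by group, TMM factors, robust quasi-likelihood over all 41 groups, 123 residual degrees of freedom, coefficient of variation 0.0799). P-values were adjusted by Benjamini-Hochberg over 10766 genes within each of 66 comparisons, with a threshold of 0.05. Both libraries under 100000 counts were kept. The precision of a level is set by 1.215 to 3.23 CPM for 3 counts, which covers counting error only. On simulated counts for the comparison of 100 with 0 µM at 360 min under the IL-1β label, 70.1% of changes of 1.5-fold and 100% of changes of 2-fold were called among genes at 25 CPM or more, over 10766 genes. The changed genes were drawn from all genes, and the simulation had no spread by library number. Members had a larger median standard error than all genes (0.21 against 0.16 at 100 µM), so these rates do not apply to them.

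The rule for the members uses symbols and no measured value. Even so, the members, the lists beside them and the tests were chosen with earlier results of these data known. The choice can therefore not be taken as independent of the data. Values per library are given for the most abundant member of each role class and for up to 6 members with the smallest adjusted p under 0.05 in a comparison, and for other lists up to 4 genes are named. Alternatives were RLE factors, DESeq2 1.42.0, no filter, a fit on the compared groups, the library number as a replicate block, and leaving out shallow libraries or each library number. A block within each label, and leaving out 2 libraries with many detected genes, were added after seeing the data.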

Additional observations from a re-analysis of the deposited data

Results flagged for a closer look

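In groups of 4 libraries, 96 checks were made for 1 library far from the others. They covered the summed level of the members in each of the 41 groups and the single genes called, in the groups compared. Of the 96 checks 2 stood apart, both of single genes, where chance gives about 1 in 20. Birc5, the passenger complex subunit survivin, had 259.8 CPM in library 4 labelled IL-1β at 0 µM and 30 min, against 202 to 208 CPM in the other 3. Nusap1, the microtubule-bundling protein, had 57.91 CPM in unstimulated library 2, below the 62.9 to 63.5 CPM of the other 3.

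The change of Bub1b, the checkpoint protein BubR1, between 360 and 15 min differed between 100 and 0 µM SC-514 under the IL-1β label, by -0.82 log2 units in the direct test of that difference (adjusted p = 0.0435 in edgeR). Of the 12 alternatives 6 ended this call, with a difference between -0.97 and -0.74 and an adjusted p of up to 0.267.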

How the results depend on the processing

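None of the 56 named calls changed direction under any of the 12 alternatives, and 11 passed under all 12. These were Nusap1 at 100 µM under the IL-1β label at 30, 60 and 120 min and under the TNF-α label at 120 min, at 50 µM under the IL-1β label at 120 min, and in the slopes at 30 min (IL-1β) and 120 min (TNF-α), Ccnb2 at 100 µM and in the slope at 120 min under the TNF-α label, and Racgap1 and Bub1b between 360 and 15 min at 100 µM under the IL-1β label. The 10 stimulus calls became 6 with RLE factors, 6 with DESeq2, 117 without a filter, 85 in fits of the compared groups, 18 with the library number as a replicate block, and 0 to 12 when a library number was left out. The 14 calls at 100 µM became 64 without a filter, 35 in fits of the compared groups, and 5 to 16 without a library number. The 16 slopes became 67, 30 and 3 to 12 in the same order, and the 7 calls on time 19, 17 and 2 to 6, or 4 with DESeq2. The 0 calls between labels became 4 without a filter and stayed 0 without any library number. The share of all genes called is not given for these runs. Their counts therefore do not tell a trait of the members from a setting that calls more or fewer genes of every kind. With the library number as a replicate block within each label the counts were 142, 80, 81, 26 and 5. The 142 are 44.4% of the tests of members, where 8.78% of those of all genes passed, and the 80 are 25%, where 28.1% did. The unstimulated libraries are in no block, so the 142 do not come from comparisons within numbers. The block still takes the spread between numbers out of their error, so the 44.4% is too liberal. The 80 come from comparisons within a label, where the block applies to both groups. The rule on correlated deviations over all genes asked for every pair over 0.1, which held in 0 of 30 comparisons, so the reported fit used no pairing. That rule takes all genes together, while the spread between numbers was wider in the members, so it does not decide the question for the members. Yet 68 of 79 libraries under the IL-1β label, and 71 of 79 under the TNF-α label, lay nearest to their own number. That is a hint from the data and not from the design, and a pairing by number is neither given nor excluded. The median standard error of the stimulus differences under the IL-1β label was 0.22 in the reported fit, 0.13 without a filter, 0.12 in fits of the compared groups and 0.12 with the block within labels, and the cause was not tested. Of the 56 named calls 46 stayed with RLE factors, 41 with DESeq2, 53 without the shallow libraries, and 12, 36, 23 and 37 without numbers 1 to 4. Depth limits Kif20a most, at 6.25 CPM on average.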
